A study of Mus musculus with 5 samples.

Results

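GABA-A receptor subunits of the dentate gyrus were followed here as the 7 genes Gabra2, Gabra3, Gabra4, Gabra5, Gabrb1, Gabrb2 and Gabrd, taken by gene symbol from the 78334 genes listed in each count matrix. They were read in nuclei from frozen dentate gyrus of mice in 3 groups. KO-CFC is the label of mice given as Csf2rb2 knockouts, taken 14 days after contextual fear conditioning (CFC), in which a mouse learns to link a chamber with a foot shock. WT-CFC were wild-type mice at the same time after the same training. WT-naive were wild-type mice with no training. The study's design gives 10 mice per group, and each group came as 1 single-nucleus RNA library. The strain and age of the mice, how the animals were combined and what part of Csf2rb2 was removed are not given in the sources used here. With 1 library per group no difference below has a replicate check. The intervals below are 95% intervals that cover counting error only, and no p-value is given.

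GABA-A receptors are chloride channels built of several subunits around a pore, and they carry most fast inhibition in the brain. An alpha and a beta subunit form the site where GABA binds, and a further subunit, usually gamma or delta, sets where the receptor sits and how it responds to drugs. Receptors that cluster at synapses usually hold a gamma subunit. Receptors with the delta subunit lie outside synapses, are opened by low ambient GABA and in dentate granule neurons pair with the alpha4 subunit to carry tonic inhibition. Alpha5 receptors are typical of hippocampal pyramidal neurons and are mostly extrasynaptic. Csf2rb2 encodes a beta subunit of the mouse interleukin-3 receptor.

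Of the 7 genes, 3 lie together on mouse chromosome 5. Gabra2, Gabra4 and Gabrb1 stand in a run that holds 4 protein-coding genes in RefSeq GRCm38.p6, the other being Cox7b2. Gabrd lies on chromosome 4, Gabra5 on chromosome 7, Gabrb2 on chromosome 11 and Gabra3 on chromosome X. Gabra4 and Gabrb1 start 387 bases apart on opposite strands and their annotated spans overlap. The pair is shown because these neighbours share the start region and yet, as the values below show, were highest in different cell classes. The 250 bases before each start are given 5′ to 3′ on the gene's own strand, from RefSeq GRCm38.p6, with each GC box (GGGCGG or its complement CCGCCC) in capitals. The window lies at chr5:71658309-71658558 on the minus strand for Gabra4 and at chr5:71657671-71657920 on the plus strand for Gabrb1.
Gabra4: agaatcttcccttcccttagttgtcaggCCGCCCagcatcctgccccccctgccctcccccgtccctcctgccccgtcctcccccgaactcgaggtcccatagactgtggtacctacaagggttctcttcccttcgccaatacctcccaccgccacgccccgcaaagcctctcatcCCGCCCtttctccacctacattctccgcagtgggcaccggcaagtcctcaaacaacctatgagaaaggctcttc
Gabrb1: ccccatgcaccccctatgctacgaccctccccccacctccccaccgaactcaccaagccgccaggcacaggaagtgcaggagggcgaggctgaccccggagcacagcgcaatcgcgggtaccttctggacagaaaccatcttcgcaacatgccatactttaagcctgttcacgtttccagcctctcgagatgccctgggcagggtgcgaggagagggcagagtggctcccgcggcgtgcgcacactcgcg
The Gabra4 window held 2 GC boxes and 61.2% G or C. The Gabrb1 window held none and 64.4% G or C. Over all 32851 promoter windows of the table, 32.7% held a GC box on either strand, 12.4% held TATAAA and 1.55% held TGACGTCA. Promoter windows were found for 6 of the 7 genes, the exception being Gabrd. A match describes the letters in the window, and the deposited counts hold no measure of binding there. Whether the counting used the strand of each read was not given in the sources used here, and without strand the reads of overlapping genes cannot be told apart.

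After filters on depth and doublets, 7320 nuclei of KO-CFC, 12014 of WT-CFC and 9893 of WT-naive were kept, from 38045642, 68519389 and 64716053 UMIs (counted RNA molecules) in these libraries. The 29227 nuclei gave 34 clusters, of which 3 stayed unnamed, and 11 named classes are used here. The unnamed clusters held 16% of the kept nuclei of KO-CFC, 38.2% of WT-CFC and 14.7% of WT-naive. Their median depths were 580, 570 and 601 UMIs, and they enter no class level or ratio below. Class names rest on marker genes, so each class is called by the cell type its markers resemble. All markers were highest in their own class for astrocyte-like (9 of 9), microglia-like (9 of 9), oligodendrocyte-like (8 of 8), oligodendrocyte precursor-like (6 of 6) and immature neuron-like nuclei (8 of 8), and 9 of 10 were for granule neuron-like nuclei. The fewest were for Sst interneuron-like (4 of 8) and CA3 pyramidal neuron-like nuclei (5 of 8). The library labelled KO-CFC stood apart from the others. Most of its granule neuron-, CA3-, astrocyte-, oligodendrocyte- and microglia-like nuclei formed clusters of their own (numbers 3, 6, 17, 18 and 15), whereas WT-CFC and WT-naive nuclei shared clusters 2, 1, 4, 7 and 12. It also held 212 T cell-like and 76 B cell-like nuclei. The female-specific RNA Xist stood at 642 CPM (counts per 1000000 UMIs) in KO-CFC, against 1.82 CPM in WT-CFC and 2.95 CPM in WT-naive, and the Y-linked Eif2s3y at 15.9 CPM in KO-CFC, against 106 and 102 CPM, so the sex make-up differed together with the genotype label. Csf2rb2 in mossy cell-like nuclei, a class it helped to name, was 92.1 CPM in KO-CFC, against 116 CPM in WT-CFC and 97.7 CPM in WT-naive. These are counts of transcript ends, and since the removed part of the gene is not stated they do not check the label. The genotype field of this library reads Csf2rb3-KO while its title names Csf2rb2. Libraries shared 25 to 32 cell barcodes per pair.

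Gabra2, an alpha subunit common at synapses onto forebrain principal neurons, was highest in granule neuron-like nuclei. Its level there was 531 CPM in KO-CFC, 552 CPM in WT-CFC and 576 CPM in WT-naive, from 3707, 4600 and 3488 counts. Mossy cell-like nuclei held 361, 423 and 474 CPM in the same order of libraries, and CA3 pyramidal neuron-like nuclei 380, 423 and 438 CPM. Granule neuron-like nuclei were above mossy cell-like nuclei in every library, while mossy cell-like, CA3-like and immature neuron-like nuclei overlapped. Adarb2 interneuron-like nuclei lay lower, at 181 CPM in KO-CFC, 194 CPM in WT-CFC and 210 CPM in WT-naive. The lowest class was oligodendrocyte-like, and the highest class stood 13.7-fold above it in geometric mean over the libraries.

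Gabra3, an alpha subunit best known from monoamine and thalamic neurons, was found mainly in interneuron-like and oligodendrocyte precursor-like nuclei. It stood at 65.8 CPM in Sst interneuron-like nuclei of KO-CFC, 91.5 CPM in WT-CFC and 75.7 CPM in WT-naive, from 69, 237 and 234 counts. Oligodendrocyte precursor-like nuclei held 74.4, 59.5 and 69.5 CPM, from 24, 66 and 53 counts. These classes overlapped between libraries, so neither is given as the highest. Adarb2 interneuron-like nuclei followed, with 32.0 CPM in KO-CFC, 48.7 CPM in WT-CFC and 56.9 CPM in WT-naive, and Lhx6 interneuron-like nuclei without Sst held 24.5, 41.0 and 39.0 CPM. In every other class and library Gabra3 was at or under 7.51 CPM. In granule neuron-like nuclei it was 1.15 CPM in KO-CFC, 1.44 CPM in WT-CFC and 1.32 CPM in WT-naive, from 8, 12 and 8 counts. The class with the highest mean was 56.4-fold above the class with the lowest, the widest such fold among the 7 genes.

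Gabra4, the alpha subunit that joins delta in forebrain extrasynaptic receptors, was highest in granule neuron-like nuclei. It stood there at 253 CPM (interval 241 to 265) in KO-CFC, 241 CPM (interval 230 to 251) in WT-CFC and 222 CPM (interval 211 to 235) in WT-naive. That was 2.30-fold above the next class in geometric mean, immature neuron-like nuclei, which held 111, 112 and 87.2 CPM. CA3-like, astrocyte-like and mossy cell-like nuclei came next and overlapped with each other. The lowest class was Sst interneuron-like, with 29.5 CPM in KO-CFC, 19.7 CPM in WT-CFC and 11.3 CPM in WT-naive.

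Gabra5 was highest in CA3 pyramidal neuron-like nuclei in every library, with 170 CPM in KO-CFC, 178 CPM in WT-CFC and 171 CPM in WT-naive. Of its 11 classes, this one varied least between libraries. Immature neuron-like nuclei held 149 CPM in KO-CFC, 123 CPM in WT-CFC and 99.1 CPM in WT-naive. Granule neuron-like nuclei held 102, 120 and 106 CPM, which overlapped with the immature class. Mossy cell-like nuclei held 62.1 CPM in KO-CFC, 75.7 CPM in WT-CFC and 71.9 CPM in WT-naive, below granule neuron-like nuclei in all 3 libraries.

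Gabrb1, a beta subunit, was highest in a class that is not neuronal. Astrocyte-like nuclei held 1615 CPM (interval 1533 to 1700) in KO-CFC, 2603 CPM (interval 2529 to 2678) in WT-CFC and 1751 CPM (interval 1685 to 1820) in WT-naive, from 1456, 4736 and 2604 counts. Granule neuron-like nuclei followed at 994, 1071 and 1061 CPM, and mossy cell-like nuclei at 898, 1085 and 1148 CPM. These neuronal classes overlapped with each other, and the astrocyte-like class was above both in every library. CA3-like nuclei held 801 CPM in KO-CFC, 860 CPM in WT-CFC and 877 CPM in WT-naive, but the class was not uniform. CA3-like clusters ranged over 760 to 1510 CPM, and the highest was cluster 19 with 337 nuclei. Sst interneuron-like nuclei were the lowest neurons, at 131, 114 and 95.2 CPM.

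Gabrb2, the beta subunit of the most widespread synaptic receptors, was highest in Lhx6 interneuron-like nuclei without Sst. Its level there was 547 CPM (interval 495 to 603) in KO-CFC, 663 CPM (interval 626 to 702) in WT-CFC and 715 CPM (interval 676 to 757) in WT-naive. Granule neuron-like nuclei came next and varied little, with 352, 344 and 346 CPM. Adarb2 interneuron-like nuclei held 215 CPM in KO-CFC, 325 CPM in WT-CFC and 263 CPM in WT-naive, and mossy cell-like nuclei 165, 238 and 251 CPM. Gabrb2 was low in glia other than precursors, and astrocyte-like nuclei held 46.6 CPM in KO-CFC, 15.9 CPM in WT-CFC and 23.5 CPM in WT-naive. The beta genes thus had their highest levels in different classes, Gabrb1 in astrocyte-like and Gabrb2 in Lhx6 interneuron-like nuclei.

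Gabrd, the delta subunit, was highest in granule neuron-like and Lhx6 interneuron-like nuclei. Granule neuron-like nuclei held 66.9 CPM (interval 61.0 to 73.2) in KO-CFC, 41.0 CPM (interval 36.8 to 45.6) in WT-CFC and 38.3 CPM (interval 33.6 to 43.6) in WT-naive, from 467, 342 and 232 counts. Lhx6 interneuron-like nuclei without Sst held 50.5 CPM in KO-CFC, 39.3 CPM in WT-CFC and 39.0 CPM in WT-naive, from 37, 70 and 67 counts. The ranges of these classes overlapped, and both were above the immature neuron-like class, at 17, 11 and 5.29 CPM, in every library. In CA3-like nuclei Gabrd was 3.77 CPM in KO-CFC, 0.549 CPM in WT-CFC and 1.33 CPM in WT-naive, and in mossy cell-like nuclei 3.10, 0.676 and 0.701 CPM.

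**Figure D1:**
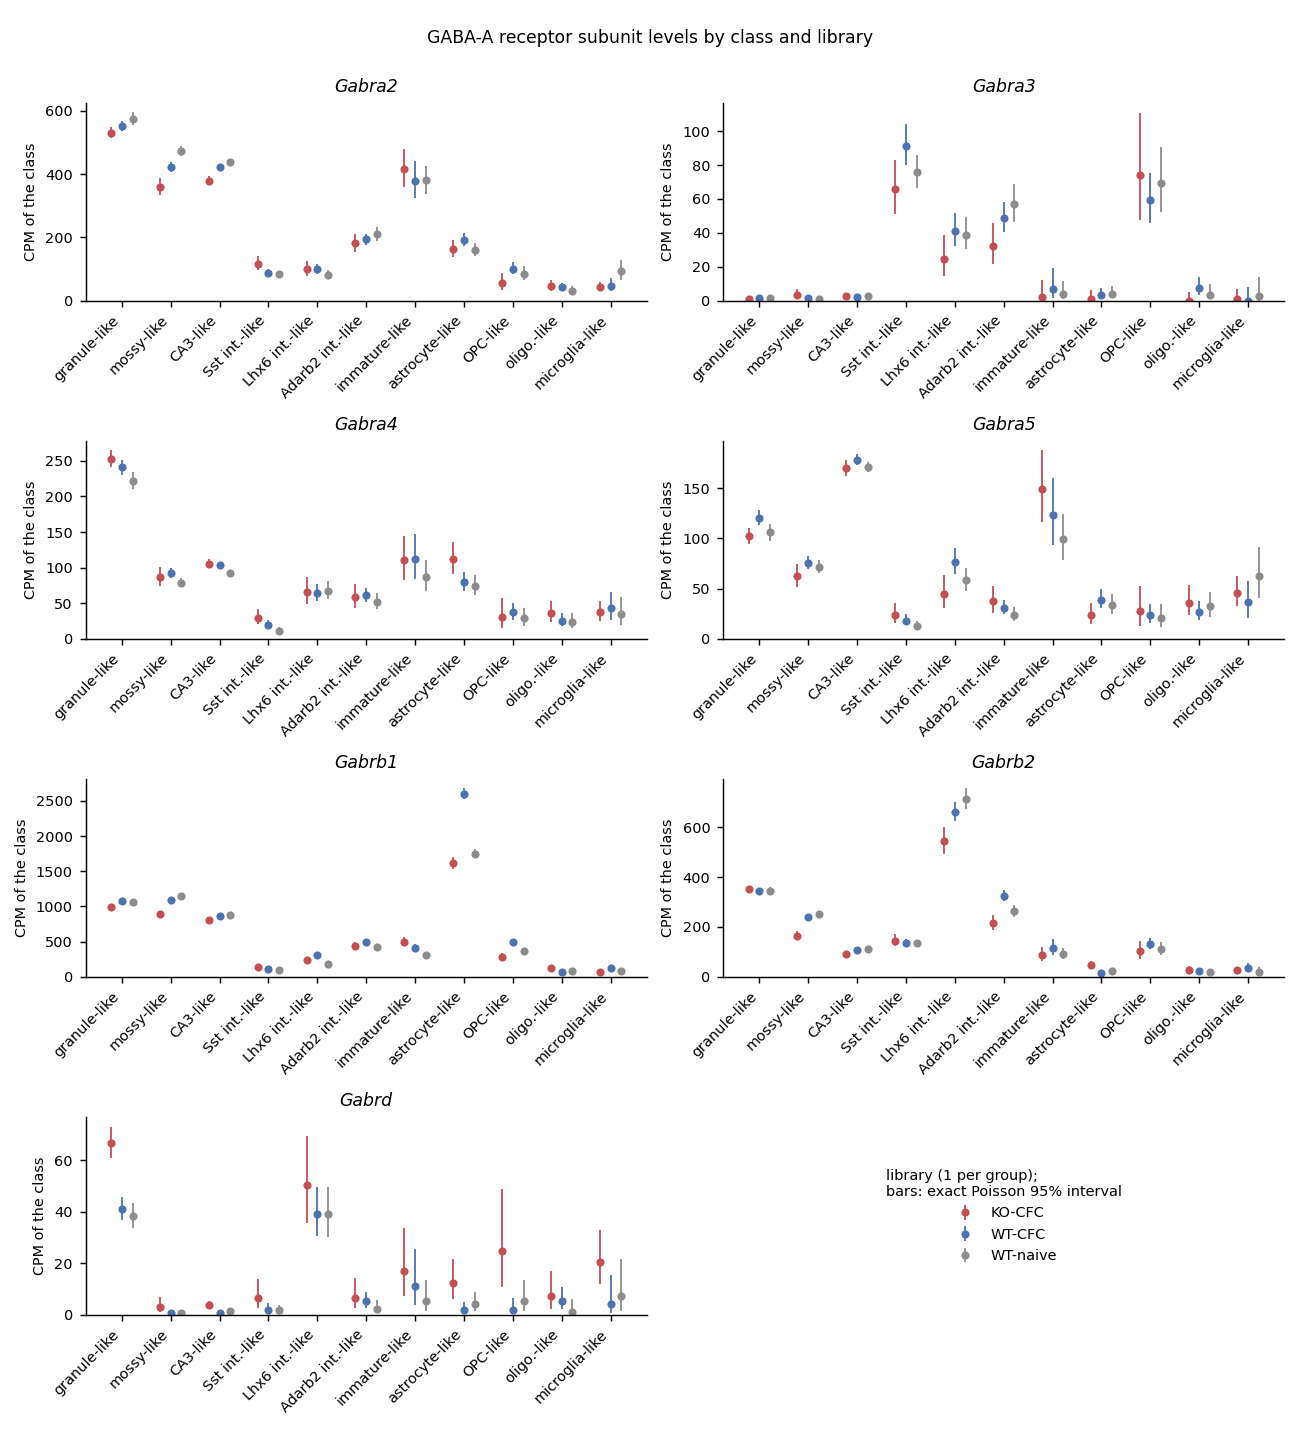
Level of each of the 7 genes by class and library, in CPM on a linear axis, with KO-CFC, WT-CFC and WT-naive as separate points and bars for exact Poisson 95% intervals. Gabrb1 is highest in astrocyte-like nuclei (1615, 2603 and 1751 CPM), and Gabra4 in granule neuron-like nuclei (253, 241 and 222 CPM).

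The share of nuclei with at least 1 UMI of a gene was also taken, with each nucleus thinned to 1000 UMIs. Gabrb1 was found in 77.0% of astrocyte-like nuclei in KO-CFC, 89.0% in WT-CFC and 77.7% in WT-naive, while in microglia-like nuclei, the class taken as background, it was found in 4.75%, 10.9% and 7.08%. Gabrb2 was found in 42.4%, 47.0% and 48.0% of Lhx6 interneuron-like nuclei, against 1.66%, 4.35% and 1.25% of microglia-like nuclei. Gabra4 was found in 22.6% of granule neuron-like nuclei in KO-CFC, 18.9% in WT-CFC and 20.1% in WT-naive, against 2.85%, 3.99% and 4.17% of microglia-like nuclei. Gabrd was found in 6.52% of granule neuron-like nuclei in KO-CFC, 4.56% in WT-CFC and 4.52% in WT-naive, against 1.19%, 0.362% and 1.25% of microglia-like nuclei. Gabra3 was found in 7.59%, 7.31% and 8.30% of Sst interneuron-like nuclei and in 5.70%, 5.09% and 6.27% of oligodendrocyte precursor-like nuclei. It was found in none of 421 microglia-like nuclei in KO-CFC, 276 in WT-CFC or 240 in WT-naive, which limits nuclei with a UMI at this depth to 0.872%, 1.33% and 1.53% (exact Clopper-Pearson limits) and sets no limit on nuclei that express the gene. The Gabrd intervals in granule neuron-like nuclei were 5.41% to 7.78% in KO-CFC and 3.54% to 5.77% in WT-CFC, which overlapped. Thinned to 2000 UMIs, the Gabrd shares there were 13.1% in KO-CFC, 7.19% in WT-CFC and 7.17% in WT-naive. Thinning left out 12, 8 and 11 granule neuron-like nuclei that were too shallow, 63, 53 and 85 astrocyte-like nuclei and 273, 70 and 86 microglia-like nuclei. Without thinning, the shares of granule neuron-like nuclei with Gabrd were 21.6% in KO-CFC, 19.9% in WT-CFC and 16.9% in WT-naive, and with Gabra4 57.3%, 66% and 60.1%. The unthinned shares of astrocyte-like nuclei with Gabrb1 were 86.3%, 96.6% and 87.9%, and of Lhx6 interneuron-like nuclei with Gabrb2 90.4%, 95.1% and 91%.

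Free RNA from neurons can reach glial nuclei in droplets, so glial levels were set against 10 genes abundant in neurons, among them Snap25 and Syt1 of the release machinery. Each level in a glial class was taken as a percent of the granule neuron-like level of the same library. In astrocyte-like nuclei the 10 genes lay between 16.4% and 63.7% in KO-CFC, between 8.79% and 82.2% in WT-CFC, and between 13% and 102% in WT-naive. Gabrb1 was at 163% in KO-CFC, 243% in WT-CFC and 165% in WT-naive, above all 10 in each library. Gabra3 in oligodendrocyte precursor-like nuclei was also above all 10, with 6496%, 4129% and 5258% of a granule neuron-like level that was close to zero. Gabra3 in astrocyte-like nuclei was above them as well, but on 1, 6 and 6 counts. Granule neuron-like nuclei had the lowest mean Gabra3 of all classes, so for Gabra3 this comparison cannot decide on free neuronal RNA. Free RNA from interneuron-like nuclei, which held more Gabra3, was not tested. Gabrb2 in astrocyte-like nuclei was below all 10, at 13.2% in KO-CFC, 4.63% in WT-CFC and 6.80% in WT-naive, and it was also below them in oligodendrocyte- and microglia-like nuclei of every library. Gabrd in microglia-like nuclei was at 30.6% of the granule neuron-like level in KO-CFC, 10.3% in WT-CFC and 19.4% in WT-naive. The 10 genes there lay between 17.5% and 85.4%, 10.3% and 129%, and 13.1% and 151% in the same order. Gabrd was thus not outside their range in any library.

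**Figure D2:**
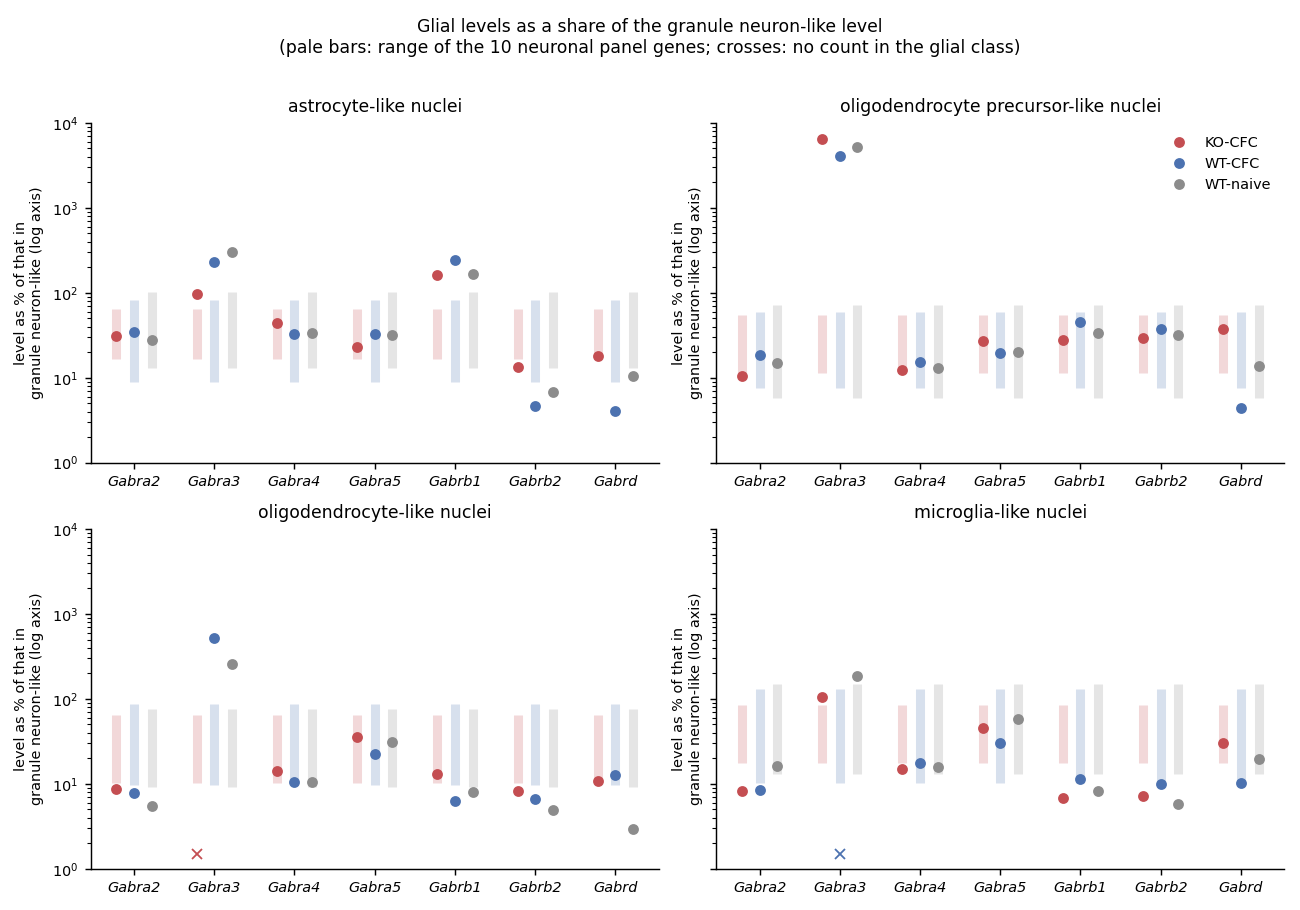
Level in each glial class as a percent of the granule neuron-like level of the same library, on a log axis, for the 7 genes and for the range of the 10 neuronal genes. Gabrb1 in astrocyte-like nuclei (163%, 243% and 165%) lies above the range in each library, and Gabrb2 in astrocyte-like nuclei (13.2%, 4.63% and 6.80%) below it.

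Across 33 points, the 11 classes in each of 3 libraries, Gabra2 followed Gabra4 most closely among the 7 genes, with a Pearson correlation of log2(CPM + 1) of 0.82. Gabrb1 correlated with Gabra2 at 0.77 and with Gabra4 at 0.76, so the 3 genes of the chromosome 5 run were similar over classes although Gabrb1 alone peaked in astrocyte-like nuclei. Gabra5 correlated with Gabra4 at 0.76 and with Gabra2 at 0.71. Gabra3 ran opposite to Gabra5 at -0.56 and to Gabra4 at -0.53. Gabrd and Gabra4, which pair in granule neuron receptors, correlated at 0.38. These points share libraries, depth and classes, and the correlations are descriptions with no p.

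**Figure D3:**
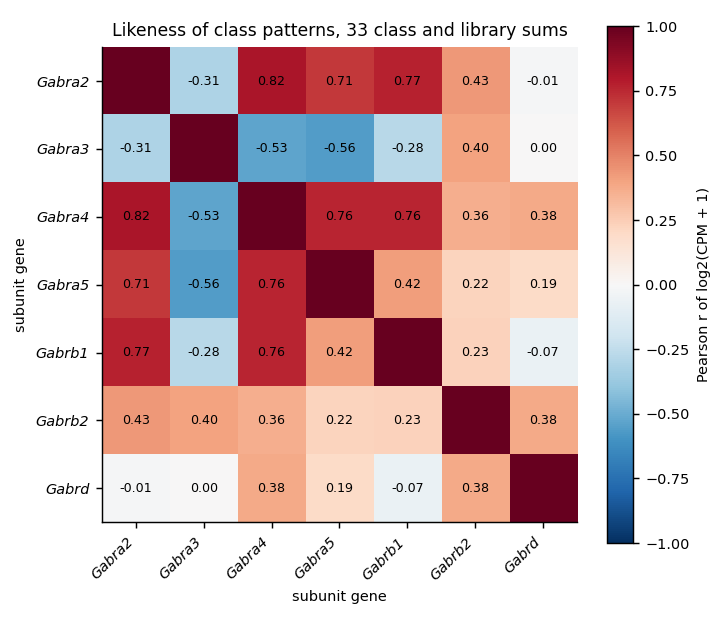
Pearson correlation of log2(CPM + 1) between each pair of the 7 genes over 33 class and library points. Gabra2 and Gabra4 are most alike (0.82), and Gabra3 and Gabra5 most opposed (-0.56).

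Over the same 33 points, the most similar of 11112 genes outside the family were named for each of the 7. Gabra2 was closest to Nr3c2, the mineralocorticoid receptor, at 0.888, to Gria2, an AMPA receptor subunit, at 0.881 and to Kalrn, a guanine exchange factor of dendritic spines, at 0.881. Gabra3 was closest to Vwc2 (0.932), Cdc14b (0.914) and Nxph1 (0.914), the last a neurexin ligand of inhibitory neurons. Gabra4 was closest to Nr3c2 (0.879), Syt17 (0.870) and Sphkap (0.855). Gabra5 was closest to Nrp1 (0.929), a semaphorin co-receptor, Sphkap (0.857) and Kcnip2 (0.85), a subunit that binds Kv4 potassium channels. Gabrb1 was closest to Ppil6 (0.902), Wwc1 (0.844) and Garem1 (0.823). Gabrb2 was closest to Slc2a13 (0.924), Zfp804a (0.919) and Adamts17 (0.915). Gabrd was closest to Sv2c (0.897), a synaptic vesicle protein, Ntf3 (0.893), the neurotrophin-3 gene, and Slc39a6 (0.758). Nr3c2 and Sphkap each appeared for a pair of genes.

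To ask how conditioning and the genotype label went with these levels, each gene was compared between libraries within each class that had at least 100 nuclei in both, for genes with at least 100 counts over both. A gene was called higher or lower where its level differed at least 1.5-fold, which is 0.58 on the log2 scale. The 7 genes in 11 classes give 77 possible values per comparison. The comparisons of KO-CFC with WT-CFC and with WT-naive share the KO-CFC library, and each shares its other library with the comparison of WT-CFC and WT-naive.

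Between WT-CFC and WT-naive, the 7 genes differed little. Of 48 values that could be compared, 1 was called (2.08%), while 6.3% of all gene and class values were called in this comparison, 3.7% higher and 2.6% lower. The median log2 ratio of the 48 was 0.10. The called value was Gabrb1 in Lhx6 interneuron-like nuclei without Sst, at 307 CPM in WT-CFC against 175 CPM in WT-naive, a log2 ratio of 0.81 (0.61 to 1.02), in a class where 4.1% of all genes were called higher. KO-CFC held 237 CPM in that class. The call was lost when 15% of barcodes (0.46) or none (0.23) were removed as doublets. In the same class, summed CA3 markers stood at 187 CPM in WT-CFC against 85.5 CPM in WT-naive and summed astrocyte markers at 145 against 81.4 CPM. Lamp5, an interneuron gene that was highest in this class, was at 131 CPM in WT-CFC against 84.9 CPM in WT-naive. Of the class markers, Gad1 stood at 461 against 365 CPM, Gad2 at 468 against 407 CPM and Tac1 at 88.6 against 63.4 CPM. Lower in WT-CFC were Sox6 at 38.7 against 61.7 CPM and Pvalb at 24.1 against 33.2 CPM. Kcnc1 at 334 against 373 CPM and Lhx6 at 49.9 against 54.7 CPM were lower too. Their part in the result was not tested.

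Gabrb1 in astrocyte-like nuclei came next, just short of the call. WT-CFC held 2603 CPM against 1751 CPM in WT-naive, a log2 ratio of 0.57 (0.50 to 0.64). It ranged over 0.54 to 0.59 under the alternatives, and the highest, with a mitochondrial limit of 1%, was past the limit. In this class 9.69% of all genes were called in either direction. Gabrg1, a gamma subunit found in glia, was called higher at 89.0 CPM in WT-CFC against 48.4 CPM in WT-naive (log2 0.87). Among astrocyte markers, Gja1, a gap junction gene, was 923 CPM in WT-CFC against 516 CPM in WT-naive. In the same order, Aqp4 stood at 197 against 122 CPM, Slc4a4 at 1155 against 810 CPM and Aldh1l1 at 82.4 against 57.8 CPM. Gjb6 held 218 against 160 CPM, Gfap 186 against 139 CPM and Slc1a3 3032 against 2562 CPM. Ntsr2 stood at 384 against 358 CPM, and Fgfr3 was lower, at 268 against 291 CPM. The part of these genes in the Gabrb1 result was not tested.

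In granule neuron-like nuclei no gene of the 7 was called between WT-CFC and WT-naive, and the class background was 3.6%. Gabra2 had a log2 ratio of -0.06 (-0.13 to 0.00), Gabrb2 of -0.01 (-0.09 to 0.07) and Gabra5 of 0.19 (0.04 to 0.33). In CA3-like nuclei the log2 ratio of Gabra5 was 0.06 (0.00 to 0.12), that of Gabra2 -0.05 (-0.09 to -0.01) and that of Gabrb2 -0.06 (-0.14 to 0.01). None of these intervals reaches 0.58 in either direction, but they do not cover the spread between animals.

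The library labelled KO-CFC differed from WT-CFC in 9 of 44 values (20.5%), with 2 higher and 7 lower. This share was near the background, since 21.9% of all gene and class values were called in this comparison, 13.7% higher and 8.2% lower. The median log2 ratio of the 44 was -0.10. Gabrd in granule neuron-like nuclei was called higher, at 66.9 CPM in KO-CFC against 41.0 CPM in WT-CFC, a log2 ratio of 0.70 (0.50 to 0.91). It ranged over 0.61 to 0.70 in 11 alternatives and was called in all 11. The class background was 15% called higher. These nuclei lay mostly in cluster 3 for KO-CFC and cluster 2 for WT-CFC. Gabra4, the usual partner of Gabrd, was 253 CPM in KO-CFC against 241 CPM in WT-CFC and was not called.

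Outside granule neuron-like nuclei, Gabrd passed the count filter only in Lhx6 interneuron-like nuclei, where it was not called. In the other 9 classes it rested on 1 to 39 counts per library and stood higher in KO-CFC than in both other libraries, an order that has no share of all genes beside it. Oligodendrocyte precursor-like nuclei held 24.8 CPM in KO-CFC, 1.80 CPM in WT-CFC and 5.25 CPM in WT-naive. Astrocyte-like nuclei held 12.2, 1.65 and 4.03 CPM, and microglia-like nuclei 20.5, 4.25 and 7.43 CPM, the last from 17, 2 and 3 counts. The unnamed low-depth cluster 8, with 1060 of its 1061 nuclei from KO-CFC, held 45.6 CPM, against 9.93 CPM in the unnamed cluster 0, with 4586 of its 6045 nuclei from WT-CFC. In granule neuron-like nuclei summed microglia markers were 229 CPM in KO-CFC, 112 CPM in WT-CFC and 130 CPM in WT-naive, and summed astrocyte markers 444, 758 and 733 CPM. The part of these values in the Gabrd result was not tested.

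Gabrb1 gave 4 of the other 8 calls against WT-CFC, all in glia. In astrocyte-like nuclei it was lower, at 1615 CPM in KO-CFC against 2603 CPM in WT-CFC, a log2 ratio of -0.69 (-0.77 to -0.60). This ranged over -0.71 to -0.62 and was called in all 11 alternatives. The class background was 13.5% called lower. It lay in cluster 17 for KO-CFC, where Gfap, a filament gene raised in reactive astrocytes, led, and in cluster 4 for WT-CFC. In this class Gfap was 973 CPM in KO-CFC, 186 CPM in WT-CFC and 139 CPM in WT-naive. Other astrocyte markers were lower in KO-CFC than in WT-CFC, Gja1 at 469 against 923 CPM, Slc4a4 at 737 against 1155 CPM, Gjb6 at 144 against 218 CPM, Aldh1l1 at 55.5 against 82.4 CPM and Slc1a3 at 2228 against 3032 CPM. Fgfr3 stood at 250 against 268 CPM, Ntsr2 at 405 against 384 CPM and Aqp4 at 246 against 197 CPM. Summed microglia markers were 417 CPM in KO-CFC, 89.6 CPM in WT-CFC and 106 CPM in WT-naive. Their part in the result was not tested.

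In oligodendrocyte precursor-like nuclei Gabrb1 was 273 CPM in KO-CFC, against 490 CPM in WT-CFC, a log2 ratio of -0.84 that was called in all 11 alternatives. The class background was 15.6% called lower. The median log2 ratio of all genes in that class was -0.19. In microglia-like nuclei it was 67.5 CPM in KO-CFC against 121 CPM in WT-CFC (-0.84, -1.40 to -0.28), from 56 and 57 counts, in the class taken above as background for shares, where 17.2% of all genes were called lower. That call was lost without doublet removal (-0.50), 1 of 9 alternatives. In oligodendrocyte-like nuclei it was higher, at 130 CPM in KO-CFC against 66.8 CPM in WT-CFC, a log2 ratio of 0.96 (0.52 to 1.39), where 7.4% of all genes were called higher. The median of all genes in that class was -0.21, and the Gabrb1 value turned to -0.45 without doublet removal. Summed astrocyte markers in those nuclei were 448 CPM in KO-CFC, 163 CPM in WT-CFC and 241 CPM in WT-naive, with all 9 detected, and their part in the result was not tested.

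The remaining 4 calls against WT-CFC were lower values on few counts or close to the limit. Gabra5 in Lhx6 interneuron-like nuclei was 45 CPM in KO-CFC against 76.3 CPM in WT-CFC (-0.75, -1.36 to -0.20), from 33 and 136 counts, in a class with 9.48% of genes called lower. Gabra2 in oligodendrocyte precursor-like nuclei was 55.8 CPM against 101 CPM (-0.82), from 18 and 112 counts. Gabra3 in Adarb2 interneuron-like nuclei was 32.0 CPM against 48.7 CPM (-0.59, -1.24 to -0.01), and Gabrb2 in the same nuclei was 215 CPM against 325 CPM (-0.59, -0.83 to -0.37), where 5% of genes were called lower. The calls were lost in 5 of 10 alternatives for Gabra3, 3 of 7 for Gabra5, 2 of 11 for Gabrb2 and 1 of 10 for Gabra2.

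Against WT-naive, KO-CFC differed in 7 of 43 values (16.3%), 5 higher and 2 lower, where 21.8% of all gene and class values were called, 15% higher and 6.78% lower. Their median log2 ratio was -0.01. Gabrd in granule neuron-like nuclei was called higher again, at 66.9 CPM in KO-CFC against 38.3 CPM in WT-naive, a log2 ratio of 0.80 (0.57 to 1.04), in all 11 alternatives (0.75 to 0.87). The class background was 13.6% called higher. Gabra3 in Adarb2 interneuron-like nuclei was lower at 32.0 CPM against 56.9 CPM (-0.82, -1.48 to -0.23), in all 10 alternatives that gave a value, in a class with 3.34% of genes called lower. Gabrb1 in astrocyte-like nuclei, at 1615 CPM in KO-CFC against 1751 CPM in WT-naive, was not called (-0.12, -0.21 to -0.02). Its KO-CFC level therefore lay close to WT-naive and below WT-CFC.

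The other calls against WT-naive were in 4 classes. In immature neuron-like nuclei Gabrb1 was 496 CPM in KO-CFC against 311 CPM in WT-naive (0.68), and Gabra5 149 CPM against 99.1 CPM (0.59), where 11% of genes were called higher. In astrocyte-like nuclei Gabra4 was 112 CPM against 74.6 CPM (0.59, 0.18 to 0.99), where 12.2% were called higher. In mossy cell-like nuclei Gabrb2 was lower, at 165 CPM against 251 CPM (-0.60, -0.78 to -0.43), while the median of all genes there was 0.17 and 6.07% of genes were called lower. Gabrb1 in oligodendrocyte-like nuclei was 130 CPM against 85.6 CPM (0.60), where 13.3% of genes were called higher, a value that turned to -0.17 with a mitochondrial limit of 1% and to -0.03 without doublet removal. These calls were lost in 3 of 11 alternatives for Gabrb1 in immature neuron-like nuclei (0.32 to 1.19), 4 of 11 for Gabra5, 3 of 11 for Gabra4, 2 of 8 for Gabrb2 and 5 of 11 for Gabrb1 in oligodendrocyte-like nuclei.

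**Figure D4:**
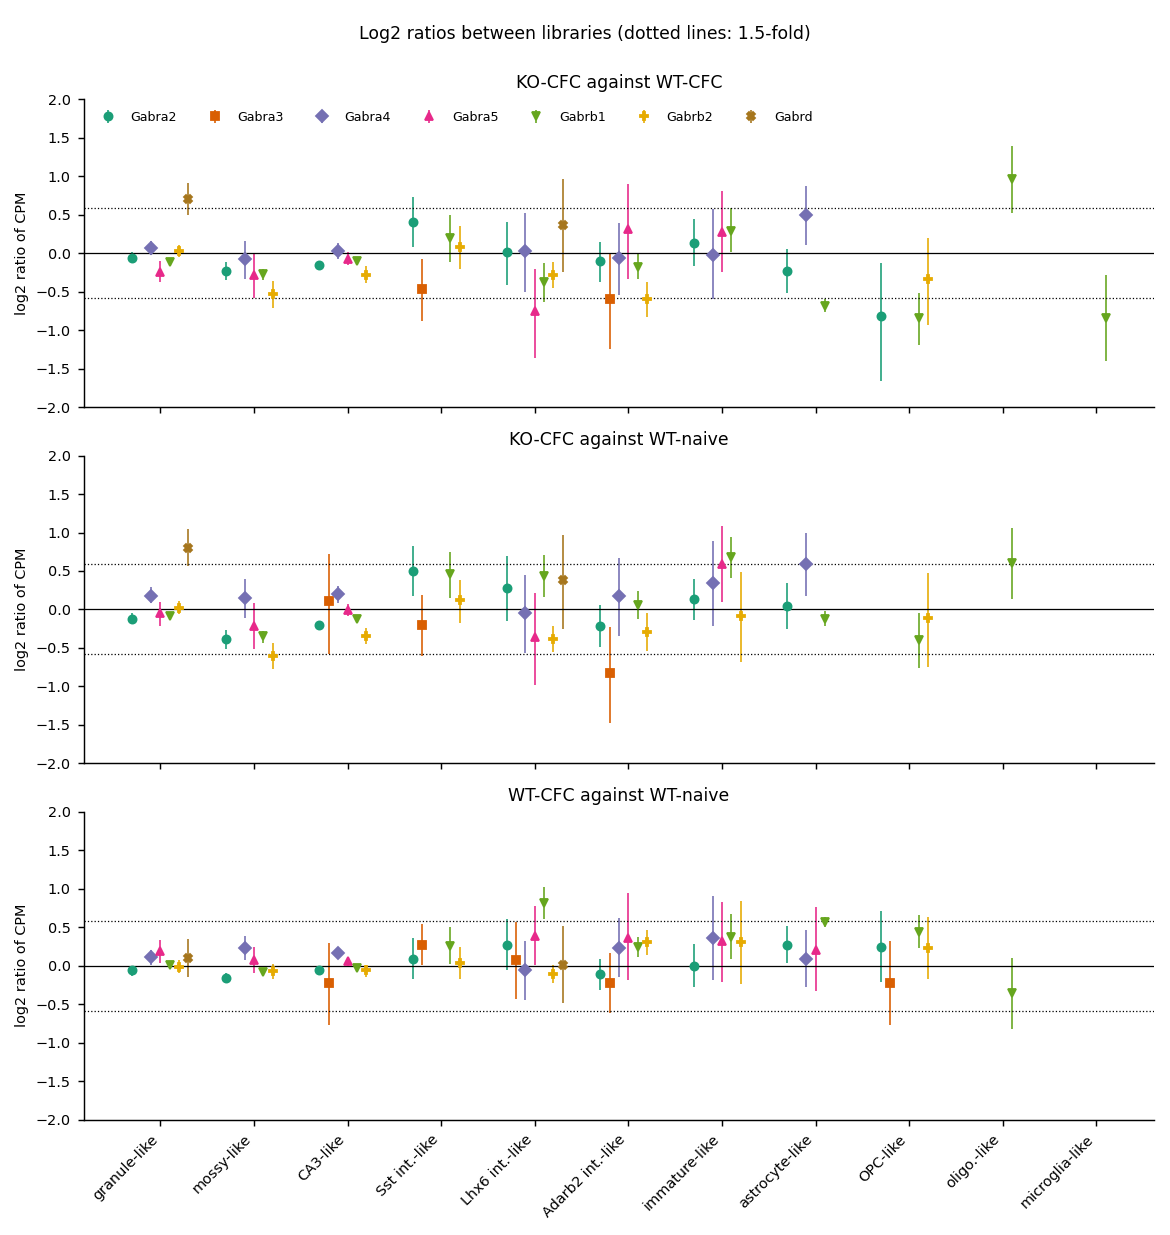
Log2 ratio of each gene by class for KO-CFC against WT-CFC, KO-CFC against WT-naive and WT-CFC against WT-naive, with 95% intervals for counting error and lines at 1.5-fold (0.58). Gabrd in granule neuron-like nuclei is past the line in both KO-CFC comparisons (0.70 and 0.80), and Gabrb1 in astrocyte-like nuclei is past it against WT-CFC (-0.69) but not against WT-naive (-0.12).

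Other genes of GABA signalling were read from 7 lists, and each list is described by its called genes and its median beside the median of all genes of the class. In astrocyte-like nuclei of KO-CFC against WT-CFC, 2 of 3 compared genes of the inhibitory scaffold list were lower and none was higher, and 12.6% of all genes in the class were called higher and 13.5% lower. The list's median was -0.86, beside -0.07 for all genes. Gphn, the scaffold protein gephyrin that also serves molybdenum cofactor synthesis, was 1095 CPM in KO-CFC against 2330 CPM in WT-CFC (-1.09). Insyn2a had a log2 ratio of -0.86. The lower Gphn was not particular to astrocyte-like nuclei. It was also called in Lhx6 (-0.68) and Adarb2 (-0.59) interneuron-like nuclei, where 9.48% and 5% of all genes were called lower. In mossy cell-like (-0.41) and Sst interneuron-like nuclei (-0.39) it was lower but not called. Slc6a11, the astrocyte GABA transporter GAT-3, was 163 CPM against 275 CPM (-0.75), 1 of 2 compared uptake genes. Gabrg1 was 52.1 CPM against 89 CPM (-0.76), 1 of 2 compared further subunits. Against WT-naive Gabrg1 was not called (52.1 against 48.4 CPM, 0.11). Gphn (-0.79), Insyn2a (-0.76) and Slc6a11 (-0.60) were called lower in that comparison too, where 9.72% of all genes in the class were called lower. The counts that follow are again against WT-CFC. Of the 7 compared genes of receptor assembly and trafficking, 1 was higher and 3 were lower, with a median of -0.47. The neuronal panel had a median of -0.05 in the same nuclei, but its genes ranged from -1.12 for Snap25, its only call, to 0.36 for Olfm1.

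In neurons, the calls of the GABA-B receptor list differed between classes. Gabbr2 itself was lower in KO-CFC than in WT-CFC in each class given here, called or not. In mossy cell-like nuclei 2 of 4 were lower than in WT-CFC, where 5.8% of all genes were called lower, and the list's median was -0.69 beside 0.14 for all genes. Gabbr2, the subunit that couples to G proteins, was 218 CPM in KO-CFC against 421 CPM in WT-CFC (-0.95), and the auxiliary subunit gene Kctd8 was 63.1 CPM against 213 CPM (-1.75). Against WT-naive the same genes were lower too, Gabbr2 at 218 CPM in KO-CFC against 335 CPM (-0.62) and Kctd8 at 63.1 CPM against 216 CPM (-1.77). In that comparison 6.07% of all genes in the class were called lower. Gabbr2 was also lower in granule neuron-like nuclei, at 319 CPM in KO-CFC against 482 CPM in WT-CFC (-0.60), the only call among 4 list genes there, with a median of -0.01 and 7.55% of all genes called lower. Against WT-naive it was not called in that class (319 against 438 CPM, -0.46), and neither was any of the other list genes. In Lhx6 interneuron-like nuclei 2 of 4 were lower, Gabbr2 at 297 CPM against 604 CPM (-1.02) and Kctd16 (-0.64), with a median of -0.50 beside -0.07 and 9.48% of all genes called lower. Against WT-naive 2 of 4 were lower there, Gabbr2 at 297 against 500 CPM (-0.75) and Kctd8 (-0.64), with 5.56% of all genes called lower. In Sst interneuron-like nuclei Gabbr2 was called lower against WT-CFC (150 against 262 CPM, -0.81) but not against WT-naive (-0.55). In that class 5.85% of all genes were called lower against WT-CFC and 5.83% against WT-naive. In Adarb2 interneuron-like nuclei none of 5 list genes was called in either comparison, where 5% and 3.34% of all genes were called lower. Gabbr2 there lay just short of the limit against WT-CFC (147 against 213 CPM, -0.54, -0.83 to -0.26) and at -0.19 against WT-naive. Genes of the neuronal panel were called against WT-CFC as well. In granule neuron-like nuclei Rbfox3 (-0.77) and Ppp3ca (-0.60) were lower and none was higher. In mossy cell-like nuclei Rbfox3 (-0.84) and Syt1 (-0.68) were lower and Nrgn (0.73) was higher.

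Of the chloride transporters, Slc12a2, the importer NKCC1, was called lower in granule neuron-like nuclei of KO-CFC against WT-CFC (-0.76), 1 of 5 compared, in a class with 7.55% of all genes called lower. No gene of the scaffold list was called among 8 in that class, though Gphn lay just short of the limit at 708 CPM in KO-CFC against 1060 CPM in WT-CFC (-0.58). Against WT-naive, mossy cell-like nuclei of KO-CFC held more Slc12a5, the exporter KCC2, at 192 CPM against 100 CPM (0.94), and less Slc12a2, at 55.9 CPM against 124 CPM (-1.15). There 2 of 5 transporters were higher and 1 lower, with a median of 0.40 beside 0.17, in a class where 22% of all genes were called higher and 6.07% lower. Against WT-CFC, Slc12a5 in these nuclei was not called (192 against 140 CPM, 0.46), while Slc12a2 was lower (55.9 against 86.7 CPM, -0.63). In that comparison 5.8% of all genes in the class were called lower. Slc12a2 was also called lower against WT-CFC in Sst (-0.94) and Adarb2 interneuron-like nuclei (-0.77), where 5.85% and 5% of all genes were called lower. Against WT-naive it was lower in both as well (-1.04 and -0.65), beside 5.83% and 3.34% of all genes. In astrocyte-like nuclei it was -1.13 against WT-naive, beside 9.72% of all genes called lower.

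Between WT-CFC and WT-naive, Slc32a1, the vesicular GABA transporter, was higher in Sst interneuron-like nuclei, at 215 CPM in WT-CFC against 127 CPM in WT-naive (0.76). It was the only call among 5 genes of synthesis, release and breakdown, whose median was 0.19 beside 0.06 for all genes. In that class 5.4% of genes were called higher. From the other lists, the GABA-A subunit gene Gabrg3 (233 against 151 CPM, 0.62) and Gabarapl1 (0.87) were called higher there and none lower. In Lhx6 interneuron-like nuclei Slc32a1 was again the only call of its list, at 153 CPM against 101 CPM (0.59). There 4.1% of all genes were called higher and 2.54% lower. Slc12a5 (0.59) was called higher in these nuclei too, and Kctd8 (-0.64) lower. In granule neuron-like nuclei none of 8 scaffold genes, 8 trafficking genes, 5 chloride transporter genes or 4 GABA-B genes was called, with medians of 0.15, 0.22, 0.14 and 0.16 beside 0.03 for all genes. Slc6a11 was called higher there on low levels, at 13.4 CPM in WT-CFC against 8.43 CPM in WT-naive (0.67). In that class 1.91% of all genes were called higher.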

How the data were processed

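Single-nucleus libraries from 3 groups were used, and the other 2 libraries of the series, made from dissociated cells, were not. The authors deposited whole-number UMI counts per gene and barcode, made with Cell Ranger 8.0.1, per the submitters' processing notes, which also name Seurat 5.4.0. Whether intronic reads were counted, and by strand, was not given in the sources used here.

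Barcodes with under 500 UMIs, under 300 genes or over 5% mitochondrial counts were removed. Doublets were scored against simulated pairs. The automatic limit marked 12.6% of KO-CFC barcodes, and the 8% with the highest scores were removed from WT-CFC and 8.01% from WT-naive, since the automatic limit marked under 0.5% there. Nuclei were clustered together (Leiden resolution 1, 2000 variable genes without Gabr genes, 30 components, 15 neighbours). Clusters were named from 26 marker sets, needing 3 markers at 2-fold. The score of the next class had to be at most 0.65 of the best, except between mossy cells and CA3 pyramidal neurons. The mossy cell-like class, cluster 5, passed only by this exception, with 3 markers at 2-fold and a CA3 score at 0.97 of its own. These limits for names were chosen with the data in view, and class names may differ from the study's own. The 3 unnamed clusters were left out of the classes.

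Counts were summed per class and library and divided by the summed UMIs (CPM), with exact Poisson intervals. Log2 ratios had 0.5 counts added to each sum, with exact conditional binomial intervals. Intervals cover counting error only. Nuclei are not replicates, so no test was run. Shares of nuclei were taken after thinning to 1000 UMIs. The ratio code was tested on simulated data. The genes and lists were chosen with earlier results of these data known. Genes outside the 7 were named by rule: the label check, the 3 most similar genes of each, and at most 4 called genes of a list in granule neuron-, mossy cell-, interneuron- or astrocyte-like nuclei. Marker genes named beside a result were chosen after their values were seen. Results were recomputed under 12 other settings and 1 more added after the data were seen. Python 3.11.15, numpy 2.4.6, scipy 1.17.1, pandas 2.3.3, scikit-learn 1.9.0, leidenalg 0.10.2 and igraph 0.11.9 were used.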

Additional observations from a re-analysis of the deposited data

How the results depend on the processing

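Of the log2 ratios recomputed under other settings, 1327 kept their direction and stayed close to the reported value, 75 moved and 3 reversed. Gabrb1 in oligodendrocyte-like nuclei gave all 3 reversals, at -0.17 (mitochondrial limit of 1%) and -0.03 (no doublet removal) for KO-CFC against WT-naive and -0.45 (no doublet removal) for KO-CFC against WT-CFC. The lead of Sst interneuron-like nuclei in Gabra3 reversed at -0.03 with 15% of barcodes removed as doublets, -0.19 at Leiden resolution 0.5 and -0.02 when libraries were clustered separately. For WT-CFC against WT-naive, the count of called values was 1, and became 2 with at least 1000 UMIs and 500 genes, 3 with a mitochondrial limit of 1%, 0 without doublet removal, 7 with libraries clustered separately and 16 without the count filter. For KO-CFC against WT-CFC it was 9, and became 4 with the mitochondrial limit of 1%, under which 32 of the 44 values and 6 of the 9 calls still had a value, and 24 without the count filter. For KO-CFC against WT-naive it was 7, and became 2 with at least 1000 UMIs and 500 genes, 1 with the mitochondrial limit, under which 35 of the 43 values and 5 of the 7 calls still had a value, 12 with libraries clustered separately and 28 without the count filter. Leaving out the count filter adds genes with few counts by its construction, and for the other settings the cause was not tested. Clustering without KO-CFC, chosen after the data were seen, left the count for WT-CFC against WT-naive at 1. Depth limits Gabra3 and Gabrd outside their leading classes, where sums are often a few counts. No paired analysis was possible because each group is 1 library.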
